A study of Mus musculus with 8 samples.

Results

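Cells read most cytokines through a short relay of proteins. A cytokine pulls receptor chains together, the Janus kinases (JAKs) bound to those chains phosphorylate each other and the receptor, and the receptor then recruits STAT proteins, which are phosphorylated, pair up, enter the nucleus and switch on genes. In blood cells the relay carries the signals of interferons, of colony stimulating factors and of many interleukins, and it is damped by phosphatases, by SOCS proteins and by other inhibitors. Here the genes of 4 JAK kinases (Jak1, Jak2, Jak3 and Tyk2) and 5 STAT factors (Stat2, Stat3, Stat5a, Stat5b and Stat6) were described in mouse acute myeloid leukemia (AML). They were taken by gene name from a table of read counts, and the 9 genes are 9 of its 12823 rows.

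The study made leukemia cells by putting MLL-AF9, a fusion gene of human AML, together with the reporter GFP into mouse bone marrow progenitors by retrovirus and transplanting them into irradiated mice. In 4 libraries, called new AML, the RNA came from leukemia cells soon after they had been generated. In the 4 libraries called aggressive AML it came from cells that had passed through 5 rounds of serial transplantation into mice that were not irradiated, as the study describes it. Every library was made from GFP+ cells sorted from the bone marrow of young adult C57BL/6 mice, so that both groups carry the same fusion gene and reporter and neither is a normal control. The fusion gene is driven by a retroviral promoter and not by its own, the labels give MLL-AF9 cells as the cell line of all libraries, and they call the libraries biological replicates without saying how many mice or transformed clones stand behind them. The p-values therefore measure the spread between these libraries only.

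Total counts lay between 7805544 and 9697777 per library, and values are given as CPM, the counts of a gene scaled to a common library total. At this depth 1 count is worth 0.103 to 0.130 CPM, and each of the 9 genes passed the filter on low values. All 12 genes of a list for the identity of these myeloid leukemia cells were tested, and their summed level was 6380 to 7021 CPM in new AML and 6149 to 8262 CPM in aggressive AML. Of those 12 genes, 5 were called higher and 4 lower, against 8.15% and 10.2% of all tested genes. One feature goes against a plain reading of the labels, since 4 Y-linked genes summed to 251.01 to 286.96 CPM in new AML and had 0 counts in each aggressive AML library. The study gives the mice of both groups as male and describes the aggressive cells as grown from the new ones. Whether the cells differ in sex or lost their Y chromosome was not tested, and such a difference and the group cannot be told apart, which holds for every comparison below.

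The 5 members that were lower in aggressive AML were Stat2, Jak2, Stat3, Stat6 and Tyk2, and no member was higher, with edgeR's quasi-likelihood test and a threshold of 0.05 on the adjusted p. Over all 12494 tested genes 10.2% were called lower and 8.15% higher, 18.4% in all. All 9 members had a log2 fold change below 0 (aggressive AML over new AML), against 49.92% of all tested genes. Their median was -0.36 against 0.00 over all genes. An unadjusted p under 0.05 was found in 8 members and in 4070 of the 12494 tested genes. In 7 members every aggressive AML library lay below every new AML library, a pattern that 12.0% of all tested genes showed. The sizes ran from 2.58% lower for Stat5a to 30.3% lower for Stat2. Because the libraries are bulk samples, fewer cells that use a gene and less of its RNA per cell cannot be told apart.

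**Figure D1:**
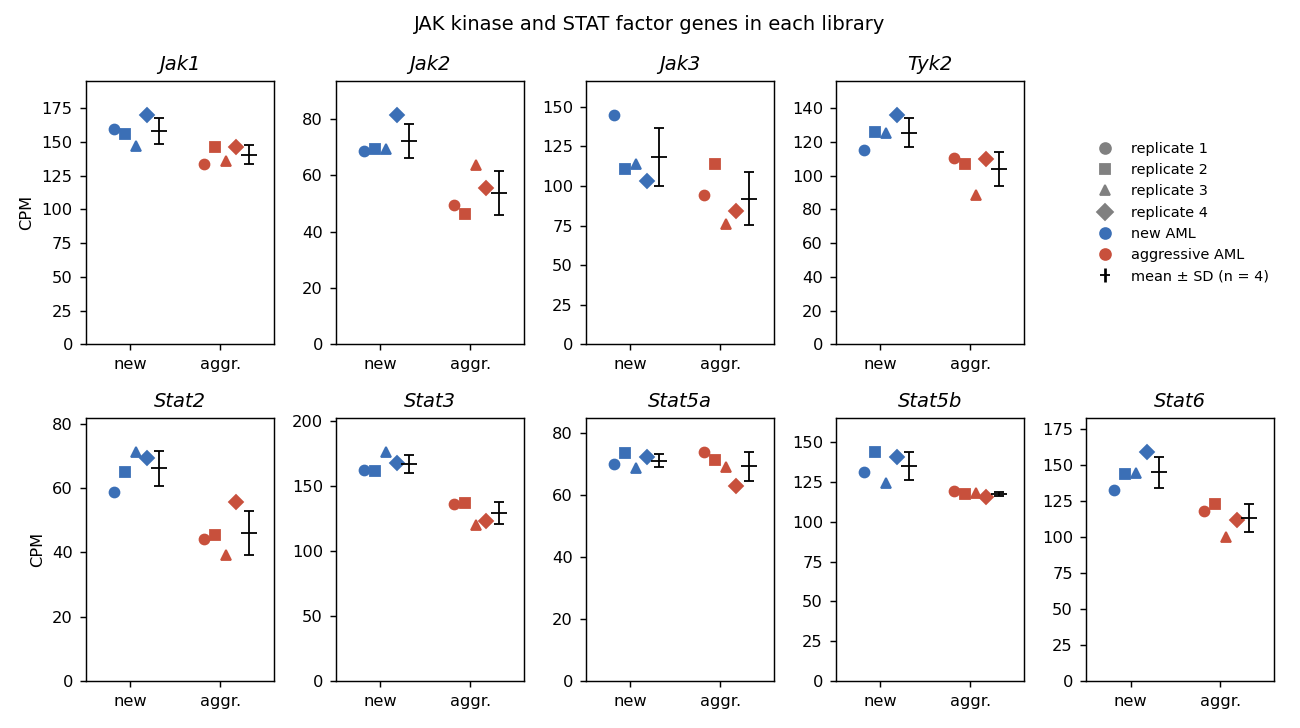
Level of each JAK and STAT gene in CPM (vertical axes, from 0) in the 4 new AML and 4 aggressive AML libraries, with a symbol for each replicate number and the mean ± SD (n = 4) beside them. The groups stand apart in every panel except Jak3 and Stat5a, and in Jak1 the gap between them is the smallest, from 146.6 to 146.7 CPM.

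Stat2 had the largest change of the 9. It is the STAT of the interferon alpha and beta response, where it joins another STAT and Irf9 in the complex ISGF3, and it lies on chromosome 10 (128270498 to 128292853, GRCm38, plus strand). Its level was 58.8, 65.0, 71.2 and 69.3 CPM in new AML replicates 1 to 4 and 44.0, 45.2, 39.3 and 55.7 CPM in aggressive AML replicates 1 to 4. Every new AML library lay above every aggressive AML library, and aggressive AML replicate 4 stood closest to the other group. The mean fell from 66.1 ± 5.49 to 46.0 ± 6.91 CPM (SD, n = 4), a log2 change of -0.52 (SE 0.11, 95% interval -0.75 to -0.29, edgeR adjusted p = 0.00421). Leaving out 1 library at a time gave -0.62 to -0.45, and the call held in all 17 alternative fits.

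The promoter of Stat2 is printed here because it was the single member in which a search found the letters of an interferon response element. The 250 bases before its start site, from RefSeq for GRCm38.p6 (chr10:128270248-128270497, plus strand), read 5′ to 3′ as follows, with the matches in capitals.
Stat2: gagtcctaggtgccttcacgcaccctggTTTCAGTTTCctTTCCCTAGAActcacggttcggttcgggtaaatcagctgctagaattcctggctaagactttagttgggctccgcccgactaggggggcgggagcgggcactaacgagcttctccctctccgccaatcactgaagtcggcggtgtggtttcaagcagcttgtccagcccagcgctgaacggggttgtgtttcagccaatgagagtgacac
The first run of capitals matches GAAANNGAAA, read on the other strand, at -222 to -213 from the start site. The second matches TTCNNNNGAA, a spacing known from Stat6 sites, at -210 to -201. Windows of 250 bases before to 50 bases after the start site were searched on both strands, and a match is a description of letters and not a site. GAAANNGAAA was found in 1079 of 27025 genes (3.99%), in 1 of the 9 members and in 9 of the 22 interferon targets that had a window (40.9%). TTCNNNNGAA was found in 8.01% of all genes and in 1 member, and TTCNNNGAA, the spacing of most other STAT sites, in 9.55% of all genes and in 0 members.

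The 10 letters of the first Stat2 match, in 1 orientation or the other, also stand before 4 of the 22 interferon targets with a window, against 71 of all 27025 genes (0.263%). They are shown with up to 10 bases on each side, in the same build, so that they can be compared with Stat2, and they were chosen after values were seen. Each is read along the strand of its own gene and stops at the start site. That strand is plus for Stat2 and Ifit1 and minus for Bst2, Oas1a and Oas1g.
Stat2, -222 to -213: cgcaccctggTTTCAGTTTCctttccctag
Ifit1, -85 to -76: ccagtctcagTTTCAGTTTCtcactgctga
Bst2, -124 to -115: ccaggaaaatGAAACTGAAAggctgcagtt
Oas1a, -14 to -5: tcgggaaatgGAAACTGAAAatct
Oas1g, -12 to -3: tcgggaaatgGAAACTGAAAat
The 4 interferon targets encode antiviral proteins, and their levels were lower in aggressive AML. All 31 tested genes of that list lay below 0, so this direction was given with the list. Levels of the rest of the 71 genes are not given here, and whether the letters play a part was not tested. Oas1a fell from 49.2 ± 17.5 to 27.4 ± 3.83 CPM and Oas1g from 4.80 ± 1.84 to 1.91 ± 0.252 CPM (SD, n = 4, edgeR adjusted p = 0.00863 and 0.00767). Ifit1 fell from 2.90 ± 2.01 to 0.932 ± 0.109 CPM (adjusted p = 0.0246) and Bst2 from 97.6 ± 30.1 to 69.8 ± 7.13 CPM (adjusted p = 0.0451). New AML replicate 3 had the highest Bst2 value, 142.0 CPM, and without it the log2 change of Bst2 was -0.25 and not called (adjusted p = 0.0977). The call of Bst2 was lost without any 1 library other than new AML replicate 2, and that of Ifit1 without new AML replicate 3 (-1.06, adjusted p = 0.0863), new AML replicate 4 or aggressive AML replicate 2. With array weights in limma the log2 changes were -0.52 for Oas1a, -0.70 for Ifit1 and -0.32 for Bst2, and none of these was called (adjusted p = 0.0528, 0.0594 and 0.0808), while that of Oas1g was -0.73 and called.

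Stat3 transmits the signals of IL-6, IL-10 and G-CSF among others. It measured 162.6, 161.5, 176.3 and 168.1 CPM in the new AML libraries and 136.2, 136.9, 120.3 and 123.2 CPM in the aggressive AML libraries. The groups were far apart relative to their spread, with no library between 136.9 and 161.5 CPM. The mean fell from 167.1 ± 6.75 to 129.1 ± 8.64 CPM (SD, n = 4), a log2 change of -0.37 (SE 0.07, 95% interval -0.53 to -0.21, edgeR adjusted p = 0.00289). This was the smallest adjusted p among the members, the log2 fold change stayed between -0.40 and -0.34 with any library left out, and the call held in all 17 alternative fits.

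Stat6 is the main STAT of IL-4 and IL-13. Its values were 132.6, 143.4, 144.5 and 158.8 CPM in new AML and 117.7, 122.8, 99.8 and 111.8 CPM in aggressive AML. The lowest new AML library was above the highest aggressive AML library, and replicate 3 was the lowest of the aggressive group. From 144.8 ± 10.7 to 113.0 ± 9.89 CPM (SD, n = 4), the log2 fold change was -0.36 (SE 0.08, 95% interval -0.54 to -0.18, edgeR adjusted p = 0.00884), with a call in all 17 alternative fits. Stat6 lies on the same chromosome as Stat2 (127642955 to 127660987, plus strand), and Nab2 on the other strand covers 0.909% of its exon bases.

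Stat5a and Stat5b are close relatives that act downstream of IL-3, GM-CSF, thrombopoietin and IL-2, and neither was called. Stat5a measured 70.0, 73.4, 68.6 and 72.0 CPM in new AML and 73.7, 71.3, 68.8 and 62.8 CPM in aggressive AML, with the groups overlapping. Its log2 fold change was -0.04 (SE 0.08, 95% interval -0.21 to 0.14, edgeR adjusted p = 0.782), and without aggressive AML replicate 4 it was 0.01. The lower end of that interval is a level 13.6% lower. Stat5b measured 131.5, 143.8, 124.2 and 140.6 CPM in new AML and 119.0, 117.5, 118.1 and 115.8 CPM in aggressive AML. These groups did not overlap and the aggressive libraries lay within a narrow band, but the log2 fold change of -0.20 (SE 0.07, 95% interval -0.36 to -0.04) had an adjusted p of 0.0728. Stat5b was called without new AML replicate 3 (-0.24, adjusted p = 0.0393) and in limma with array weights (adjusted p = 0.0190).

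Stat5b, Stat5a and Stat3 are neighbours on chromosome 11. Stat5b (100780731 to 100859004, minus strand) ends 346 bases before Stat5a (100859351 to 100885169, plus strand), and 1636 bases separate Stat5a from Stat3 (100886806 to 100939594, minus strand). Lower Stat3 next to little changed Stat5a altered their ratio, with log2 Stat3 over Stat5a at 1.23 ± 0.09 (SD, n = 4) in new AML, 0.90 ± 0.07 in the aggressive group and no overlap. Log2 Stat5a over Stat5b was -0.93 ± 0.05 and -0.77 ± 0.08, with overlapping values. Both ratios are descriptions, chosen after values were seen. Stat5a and Stat5b are the single pair, of the 36 pairs of members, whose exons share a run of 50 identical bases, with 8.21% of such runs of Stat5a and 11.0% of those of Stat5b shared, so that reads there can be split uncertainly between them. Exons annotated to Stat3 and Stat5a overlap in 72 bases on opposite strands, which is 1.01% of Stat5a.

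Among the kinases, Jak2 changed most. It serves the receptors of IL-3, GM-CSF, thrombopoietin, erythropoietin and interferon gamma, and lies on chromosome 19 (29251803 to 29313095, plus strand) with no exon shared with another gene. Jak2 measured 68.7, 69.4, 69.2 and 81.3 CPM in new AML and 49.4, 46.2, 63.6 and 55.4 CPM in aggressive AML. New AML replicate 4 stood above the 3 others of its group, which were nearly equal, and the groups did not overlap. The mean fell from 72.1 ± 6.09 to 53.7 ± 7.67 CPM (SD, n = 4), a log2 change of -0.43 (SE 0.11, 95% interval -0.65 to -0.20, edgeR adjusted p = 0.0114). Without new AML replicate 4 it was -0.37 and still called (adjusted p = 0.0461), as in all 17 alternative fits.

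Tyk2 pairs with Jak1 on the interferon alpha and beta receptor and also serves IL-12, IL-23 and IL-10. It measured 115.1, 125.9, 125.4 and 135.9 CPM in new AML and 110.4, 106.9, 88.8 and 109.8 CPM in aggressive AML. The groups did not overlap, and aggressive AML replicate 3 lay well under the 3 others of its group. The mean fell from 125.6 ± 8.50 to 104.0 ± 10.2 CPM (SD, n = 4), a log2 change of -0.27 (SE 0.09, 95% interval -0.46 to -0.09, edgeR adjusted p = 0.0425). This call was close to the threshold. It was lost without any 1 of new AML replicates 2, 3 and 4 or aggressive AML replicates 1, 2 and 3, where the adjusted p was 0.0542 to 0.123 and the log2 fold change -0.30 to -0.20, and 10 of the 17 alternative fits kept it. Tyk2 (chromosome 9, 21104068 to 21131393, minus strand) shares 8.07% of its exon bases with 1700084C06Rik on the other strand.

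Jak3 works with the common gamma chain of the IL-2 family of receptors. It measured 144.7, 110.5, 114.0 and 103.2 CPM in new AML and 94.3, 114.1, 76.0 and 84.0 CPM in aggressive AML. The groups overlapped, since aggressive AML replicate 2 lay above 3 new AML libraries, and new AML replicate 1 was the highest of all. The means were 118.1 ± 18.3 and 92.1 ± 16.5 CPM (SD, n = 4), with a log2 change of -0.36 (SE 0.13, 95% interval -0.63 to -0.09) and an edgeR adjusted p of 0.0590. Thus its fitted change was as large as that of Stat6, while the spread between its libraries was wider. Jak3 was called in DESeq2 (adjusted p = 0.0444) and without aggressive AML replicate 2 (-0.48, adjusted p = 0.0169), and leaving out new AML replicate 1 gave -0.25. Jak3 (chromosome 8, 71676383 to 71690577, plus strand) shares 7.55% of its exon bases with Insl3.

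Jak1, which serves the receptors of IL-6, of the IL-2 family and of all interferon classes, changed least among the kinases. It measured 159.7, 155.7, 146.7 and 169.8 CPM in new AML and 133.9, 146.5, 135.8 and 146.6 CPM in aggressive AML. The groups touched without overlapping. The means were 158.0 ± 9.58 and 140.7 ± 6.79 CPM (SD, n = 4), and the log2 fold change of -0.17 (SE 0.07, 95% interval -0.33 to -0.01) was not called (edgeR adjusted p = 0.132) and was called in 0 of the 17 alternative fits. Jak1 lies on chromosome 4 (101151974 to 101265282, minus strand).

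**Figure D2:**
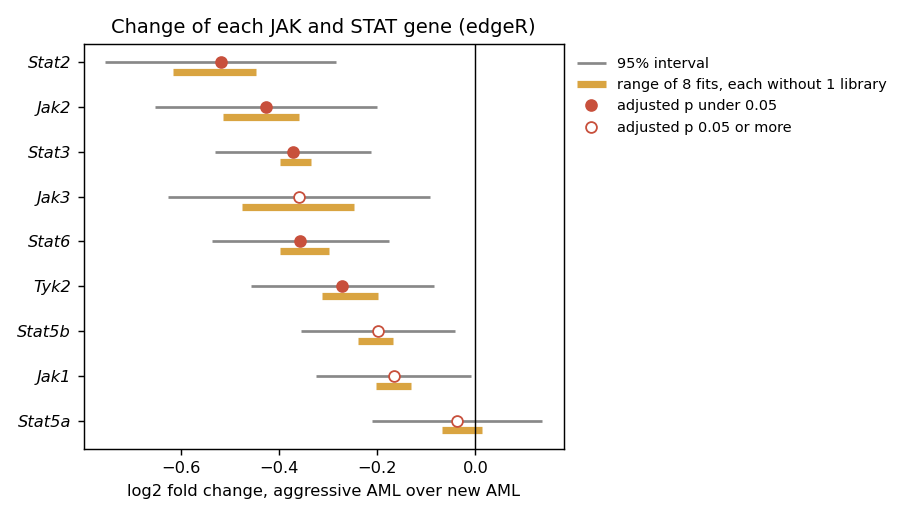
Log2 fold change of each member, aggressive AML over new AML, with its 95% interval (grey) and the range over 8 fits that each leave out 1 library (yellow); filled points have an edgeR adjusted p under 0.05. Stat2 lies farthest from 0 at -0.52, and the Stat5a interval and range both cross 0.

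Summed over each family, the level of the 4 kinases was 473.8 ± 18.0 CPM in the new and 390.4 ± 20.5 CPM in the aggressive group, and that of the 5 STAT genes was 584.0 ± 21.8 and 474.9 ± 22.0 CPM (SD, n = 4). Neither sum overlapped between groups. No 1 library gave the pattern alone. Aggressive AML replicate 3 was the lowest of its group in 5 members and the highest in 1, and in new AML replicate 1 was the lowest in 4 and replicate 4 the highest in 4.

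Levels of different genes can be compared only per length, so CPM was divided by the bases of all annotated exons of a gene in kilobases (kb). On that scale Stat6 was the highest of the 9 in both groups, at 32.9 ± 2.43 CPM per kb (SD, n = 4) in new AML and 25.7 ± 2.25 CPM per kb in aggressive AML, and it did not overlap with Stat5b, the next. In new AML the order went on with Stat5b (24.4 ± 1.61), Jak3 (22.1 ± 3.41), Jak1 (21.9 ± 1.33), Tyk2 (18.3 ± 1.24), Stat3 (17.5 ± 0.708), Jak2 (14.3 ± 1.21), Stat2 (11.2 ± 0.926) and Stat5a (9.95 ± 0.296). In that order Stat5b and Jak3, Jak3 and Jak1, Tyk2 and Stat3, and Stat2 and Stat5a overlapped. In aggressive AML the last places were taken by Stat5a (9.697 ± 0.656 CPM per kb) and Stat2 (7.77 ± 1.17 CPM per kb), which overlapped each other, and Jak1 (19.5 ± 0.940 CPM per kb) stood above Jak3 (17.2 ± 3.08 CPM per kb) with overlap. The order depends on which bases are counted as a gene. With the longest transcript in place of all exons Stat6 stayed first in both groups, Jak1 came next and Jak3 after it, and Jak2 was the lowest in new AML at 14.3 CPM per kb.

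**Figure D3:**
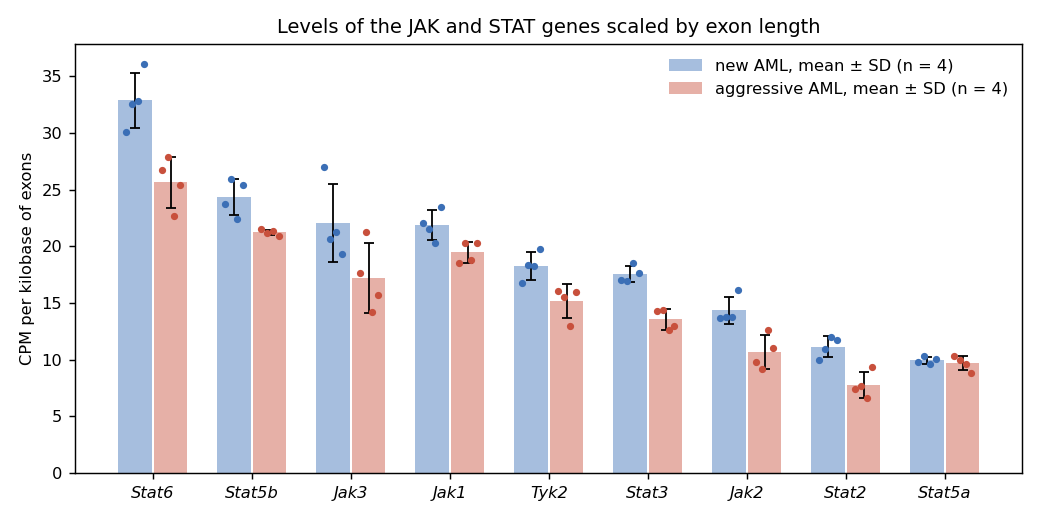
Level of each member in CPM per kilobase of annotated exon (bars from 0, mean ± SD, n = 4; points are libraries) in new AML (blue) and aggressive AML (red), ordered by the new AML mean. Stat6 leads in both groups at 32.9 and 25.7 CPM per kb, and Stat5a is the gene whose bars are most alike at 9.95 and 9.697.

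Upstream of the kinases, receptor chains mostly moved the same way as the members. Of 25 tested receptor genes 15 were called lower and 1 higher, against 10.2% and 8.15% of all tested genes. Their median change was -0.43 (log2). Both chains of the interferon alpha and beta receptor, which bind Tyk2 and Jak1, were lower, Ifnar1 from 164.4 ± 9.704 to 126.0 ± 11.8 CPM and Ifnar2 from 224.0 ± 14.6 to 166.6 ± 12.6 CPM (SD, n = 4, edgeR adjusted p = 0.00484 and 0.00155). Il6st, the shared chain of IL-6 type receptors and a route to Stat3, was 105.2, 97.5, 80.7 and 103.2 CPM in new AML and 39.2, 38.8, 41.3 and 47.5 CPM in aggressive AML, a log2 change of -1.21 (SE 0.10, adjusted p = 1.53e-06). The largest falls were those of Lifr (15.3 ± 3.76 to 2.94 ± 2.02 CPM, log2 fold change -2.36), which pairs with Il6st, and Il10ra (25.3 ± 7.23 to 5.83 ± 1.93 CPM, -2.12). Il21r fell from 29.2 ± 4.82 to 14.3 ± 5.43 CPM (-1.02).

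Further receptor chains fell, rose or were not called. Il4ra, which recruits Stat6, fell from 99.6 ± 2.83 to 57.3 ± 14.3 CPM (log2 fold change -0.80, adjusted p = 0.000942). Aggressive AML replicate 3 had the lowest value of both Il4ra (38.5 CPM) and Stat6, and it was the lowest of its group in 5 members. Csf3r, the G-CSF receptor, fell from 115.6 ± 11.2 to 69.8 ± 6.26 CPM, and Csf2rb, the beta chain that binds Jak2, from 250.5 ± 16.3 to 206.7 ± 10.1 CPM, a change that was not called without new AML replicate 2 (-0.25, adjusted p = 0.0675). Il2rg, the gamma chain that binds Jak3, measured 37.1 ± 7.33 and 37.0 ± 4.83 CPM (SD, n = 4, adjusted p = 0.985). Ifngr1, the chain of the interferon gamma receptor that binds Jak1, was the most abundant receptor gene and was higher in aggressive AML, at 331.0, 384.5, 379.7 and 399.9 CPM against 459.1, 440.7, 612.2 and 430.9 CPM (log2 fold change 0.38, adjusted p = 0.0204). This call was lost without new AML replicate 1 (0.32, adjusted p = 0.0687). Leaving out aggressive AML replicate 3, the highest library, brought the log2 change to 0.25, which was called (adjusted p = 0.0353). Ifngr2, the other chain of that receptor, was lower, from 60.8 ± 0.893 to 38.8 ± 3.03 CPM (log2 fold change -0.65, edgeR adjusted p = 0.000154).

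Of 24 ligand genes in the list 5 passed the filter on low values, and 2 of these were called, both lower. The share called lower over all tested genes was 10.2%. Il12a fell from 100.4 ± 10.1 to 75.7 ± 13.9 CPM and Ebi3, which encodes the other chain of the cytokine IL-35, from 34.9 ± 5.44 to 26.4 ± 2.80 CPM (SD, n = 4, edgeR adjusted p = 0.0292 and 0.0378). Both were close to the threshold. Neither was called without new AML replicates 2 or 4 or aggressive AML replicates 1 or 3 (each left out alone), Il12a was also lost without new AML replicate 1 and Ebi3 without aggressive AML replicate 4, and the adjusted p was then 0.0511 to 0.147. Leaving out new AML replicate 2 brought Ebi3 to -0.30.

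Among 20 tested inhibitors of the relay 3 were called, each of them lower, and the median change was -0.14 (log2). This count lies near the share over all tested genes, of which 10.2% were called lower and 18.4% in either direction. Usp18, which blocks the interferon alpha and beta receptor and is itself induced by interferon, fell from 14.6 ± 6.21 to 2.89 ± 1.25 CPM (log2 fold change -2.32, adjusted p = 0.000208). Socs5 fell from 13.5 ± 2.68 to 6.65 ± 2.28 CPM (-1.01), and Ptpn1, a phosphatase of Jak2 and Tyk2, from 105.5 ± 6.57 to 75.3 ± 4.13 CPM (-0.49). Ptpn6, the most abundant of them, measured 477.7 ± 17.6 and 415.3 ± 39.2 CPM and was not called (adjusted p = 0.0790).

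Downstream, the interferon targets had a median log2 change of -1.04, the lowest of the 6 pathway lists. Of their 31 tested genes all 31 lay below 0 and 27 were called lower, against 10.2% of all tested genes. Irf9, the partner of Stat2, measured 95.6, 94.9, 115.8 and 103.9 CPM in new AML and 49.0, 49.8, 44.2 and 56.8 CPM in aggressive AML, a log2 change of -1.04 (SE 0.10, adjusted p = 4.53e-06). Oas2 fell from 24.2 ± 7.92 to 4.17 ± 1.66 CPM (-2.52), Irf7 from 26.3 ± 10.8 to 7.28 ± 0.558 CPM (-1.85), Lgals3bp from 60.8 ± 22.4 to 17.0 ± 2.67 CPM (-1.84) and Trim30a, the most abundant, from 108.9 ± 22.5 to 50.6 ± 6.00 CPM (-1.10). Zbp1 fell from 14.1 ± 12.3 to 2.91 ± 0.355 CPM (-2.27, and -1.45 without new AML replicate 3). In the mean log2(CPM + 1) of this list that library was the highest at 5.09, against 4.16 to 4.52 in the other new AML libraries and 3.46 to 3.60 in aggressive AML. Of the members, 2 were highest and 3 were lowest of their group in new AML replicate 3. The highest were Stat2, at 71.2 CPM against 69.3 CPM in new AML replicate 4, and Stat3, at 176.3 CPM. The lowest were Jak1 (146.7 CPM), Stat5a (68.6 CPM) and Stat5b (124.2 CPM). Ifnar1 (151.8 CPM) and Ifnar2 (206.2 CPM) were also lowest of new AML there, and Tyk2 was neither.

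The list of Stat3 and Stat5 targets went in both directions. Of its 23 tested genes 11 lay below 0, and the median change was 0.05 (log2). In this list 4 genes were called lower and 3 higher, against 10.2% and 8.15% of all tested genes. The transcription factor genes Bcl3 (11.5 ± 1.97 to 6.49 ± 2.45 CPM, -0.82), Cebpd (68.0 ± 6.43 to 45.1 ± 9.68 CPM, -0.59) and Batf (21.1 ± 2.24 to 14.1 ± 2.17 CPM, -0.58) fell, and so did the cyclin gene Ccnd3 (312.9 ± 16.1 to 244.4 ± 39.2 CPM, -0.36). Id1 (6.85 ± 1.299 to 11.1 ± 2.23 CPM, 0.69), Spry2 (33.2 ± 4.1999 to 43.3 ± 2.95 CPM, 0.39) and Hif1a (107.9 ± 6.00 to 135.7 ± 11.7 CPM, 0.33) rose. Several of these calls depended on single libraries. Bcl3 was not called without new AML replicates 1 or 3 or aggressive AML replicates 1, 3 or 4, Id1 without new AML replicates 1, 2 or 4 or aggressive AML replicates 1 or 2, Spry2 without new AML replicates 3 or 4 or aggressive AML replicate 1, and Ccnd3 without new AML replicates 1 or 2, with adjusted p values of 0.0505 to 0.0807. Hp, the most abundant of the list, measured 727.3 ± 95.3 and 819.6 ± 65.5 CPM (adjusted p = 0.205), and was called higher without new AML replicate 3 (0.27, adjusted p = 0.0316).

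Of 11 tested Stat6 targets 3 were called lower and 1 higher, against 10.2% and 8.15% of all tested genes. The list went in both directions, with 6 of the 11 genes below 0, against 49.92% of all tested genes. The median change was -0.68 (log2), which is the value of Chil3. Klf4 measured 8.42, 15.6, 30.3 and 19.6 CPM in new AML and 5.06, 4.83, 2.85 and 2.50 CPM in aggressive AML, a log2 change of -2.27 (SE 0.34, adjusted p = 0.000304). Its groups did not overlap although new AML spread widely. Clec10a rose from 11.5 ± 1.64 to 16.9 ± 1.39 CPM (0.55, adjusted p = 0.0160), which was not called without new AML replicate 4 (adjusted p = 0.0544). Chil3, the most abundant, measured 26.9 ± 16.1 and 16.7 ± 4.41 CPM and was not called (adjusted p = 0.152). Irf4 (2.68 to 0.464 CPM) and Mgl2 (9.96 to 3.03 CPM) were the other genes called lower. Both had few counts in the aggressive AML libraries, 0 to 10 for Irf4 and 10 to 38 for Mgl2.

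**Figure D4:**
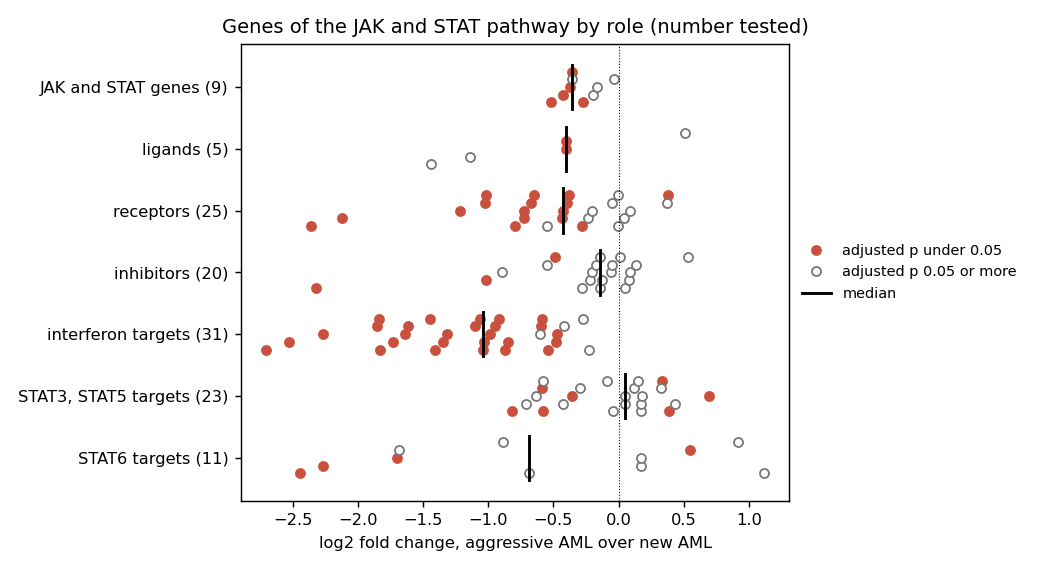
Log2 fold change, aggressive AML over new AML, of every tested gene in 7 lists by role, with the number tested beside each name, red points for an edgeR adjusted p under 0.05 and a bar for the median. The medians run from -1.04 for interferon targets through -0.43 for receptors and -0.36 for the JAK and STAT genes to 0.05 for Stat3 and Stat5 targets.

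Several genes used as markers of other blood cells differed between the groups as well. The shares called over all tested genes were 10.2% lower and 8.15% higher. Of 10 tested neutrophil genes 8 were called lower in aggressive AML (median log2 change -1.46), and their sum was 326.4 to 494.1 CPM in new AML and 166.3 to 218.8 CPM in aggressive AML. Macrophage markers summed to 61.9 to 107.6 and 37.0 to 56.4 CPM (1 of 2 called lower, median -1.21), erythroid markers to 26.9 to 99.8 and 10.02 to 53.02 CPM (2 of 7 called lower, median -1.02) and B cell markers to 39.8 to 44.4 and 32.0 to 35.8 CPM (1 of 3 called lower). T cell markers summed to 9.25 to 12.7 and 12.6 to 25.2 CPM (2 of 3 called higher), the 1 tested NK cell marker was 11.1 to 22.2 and 19.96 to 29.88 CPM (called higher), and megakaryocyte markers were 5.47 to 9.92 and 3.86 to 10.4 CPM (0 of 2 called in edgeR, 2 at an unadjusted p under 0.05). Only part of some lists was tested. This was 3 of 9 T cell genes, 1 of 7 NK cell genes and 3 of 8 B cell genes. It was also 2 of 9 macrophage genes and 2 of 5 megakaryocyte genes. The counts for these cell types therefore rest on few genes, and most of their markers had no tested value. Among the B cell genes, Cd22 had at most 2 counts in an aggressive AML library. Whether the RNA of these genes came from other cells or from the leukemia cells was not tested. The part of such cells, and of the neutrophil genes in particular, in the levels of the JAK and STAT genes was not tested either.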

How the data were processed

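Poly-A RNA of sorted GFP+ cells was sequenced from both ends, and the authors aligned reads to mm10 with HISAT2, obtained a count for each gene with Rsubread and removed those under 1 CPM. The file name of the deposited table says CPM, yet it holds whole counts, which were used as raw counts. The gene annotation and strand setting of the counting are not given in the sources used here, so overlapping genes are uncertain. A test with limma on log2(CPM + 1), after the study's methods, is an alternative. The main test was the quasi-likelihood test of edgeR (4.0.16, R 4.3.3) on TMM-scaled counts with group as the only term, over the 12494 genes with at least 1 CPM in 4 of the 8 libraries (329 left out). P-values are two-sided with Benjamini-Hochberg adjustment over these genes and a threshold of 0.05. CPM includes the TMM factors (0.986 to 1.01). Intervals are 95%. Scripts were tested on simulated counts.

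Alternatives were DESeq2 (1.42.0), limma (3.58.1) with trend, without trend and with array weights (pseudocount 1), DESeq2 size factors, total counts only, no filter, a filter of 5 CPM, the replicate block and each library left out, 17 fits in all. All pairs of libraries of a group differed beyond sampling noise. Coordinates and promoters are RefSeq GRCm38.p6 (all 9 members matched), exon lengths GENCODE of the same build.

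The members and gene lists were chosen with earlier results of these data known. The lists hold ligands, receptors, inhibitors, interferon targets, Stat3 and Stat5 targets, Stat6 targets, the leukemia identity and markers of neutrophils, macrophages, megakaryocytes, erythroid, NK, B and T cells and of the Y chromosome. Named are all members and, per pathway list, up to 4 called genes in each direction with the largest change and at least 10 CPM in the higher group, the most abundant gene and the genes most like each called member. Any other named gene (Ifnar1, Ifnar2, Ifngr2, Il4ra, Csf2rb, Csf3r, Il2rg, Irf9, Ifit1, Bst2, Oas1a, Oas1g, Irf4, Mgl2, Cd22) was chosen after its values were seen.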

Additional observations from a re-analysis of the deposited data

Results flagged for a closer look

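In groups of 4 libraries, a library was marked when its gap to the nearest other, as a part of the range of the group, was above Dixon's 95% critical value. Chance marks about 1 in 20 groups, and 9 of the 102 groups of values tested were marked. Among the members, Jak2 was marked in new AML replicate 4 (81.3 CPM, the others 68.7 to 69.4) and Tyk2 in aggressive AML replicate 3 (88.8 CPM, the others 106.9 to 110.4), of 18 groups of values tested. Among the other named genes, aggressive AML replicate 3 stood apart in Ccnd3 (185.6 CPM, the others 260.5 to 265.9), Cebpd (30.6 CPM, the others 49.4 to 50.8) and Ifngr1 (612.2 CPM, the others 430.9 to 459.1). Bcl3 stood apart in aggressive AML replicate 2 (10.1 CPM, the others 4.93 to 5.66) and Chil3 in aggressive AML replicate 1 (10.1 CPM, the others 18.7 to 19.1). Zbp1 was high in new AML replicate 3 (32.6 CPM, the others 7.60 to 8.70), and Tspan31, named below, was low in new AML replicate 2 (95.015 CPM, the others 99.99 to 101.003).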

How the results depend on the processing

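Stat2, Stat3, Stat6 and Jak2 kept their direction and their call in all 17 alternatives. Between 4 and 6 members were called lower and 0 higher over these fits. Jak3 was called in DESeq2 (-0.35, adjusted p = 0.0444) and with the replicate block (-0.36, adjusted p = 0.0344), and ranged from -0.48 to -0.25 with a library left out. Tyk2 was not called in limma without trend (-0.27, adjusted p = 0.0948) and ranged from -0.31 to -0.20 with a library left out. Stat5b was called with array weights (-0.23) and ranged from -0.24 to -0.17. Stat5a ranged from -0.068 to 0.013, with the sign turned (0.013) without aggressive AML replicate 4. The values gave no clear sign that replicate numbers pair the libraries. Deviations of equal numbers from their group means correlated at -0.10 to 0.30 over genes, and only pair 4 correlated best with its own number. Such correlations cannot show whether libraries of equal number were handled together. With the block 2367 genes were called against 2296.

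Leaving out a library gave 1466 to 2324 called genes (1466 without new AML replicate 2), and the other alternatives 1829 to 3248. With array weights 1 ligand was called higher, 7 inhibitors lower and 5 Stat3 and Stat5 targets higher. Limma without trend called 0 ligands lower, 0 receptors higher and 2 Stat6 targets higher, and DESeq2 called 1 inhibitor higher. With a library left out, 0 to 1 ligands were called higher and 0 to 2 lower, 0 to 1 receptors and 0 to 1 inhibitors higher, 3 to 5 inhibitors lower, 1 to 5 Stat3 and Stat5 targets higher and 2 to 7 lower, and 0 to 2 Stat6 targets higher. Of the other genes named, limma without trend also lost the calls of Il12a, Ebi3, Ifngr1, Csf2rb, Ccnd3, Oas1a, Ifit1, Bst2 and Plcb2, and Bst2 was not called in limma with trend or with the 5 CPM filter either. The cause of these differences was not tested. Depth limits the members little, since each had at least 303 counts in a library. With 4 libraries a group, a change as small as that of Stat5b lay near the threshold (edgeR adjusted p = 0.0728). That of Jak1 did not reach the threshold in any fit.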

Other observations

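For each called member, the gene whose values over the 8 libraries were most like its own was found among 9289 genes of at least 10 CPM, by the root mean square difference of log2(CPM + 1) after centring. For Stat2 it was Pde4dip (difference 0.0804), followed by Pik3ca and Gm3325. It was for Stat3 Tspan31 (0.0554), followed by Plod3 and Dpy19l1, and for Stat6 Plcb2 (0.0434), followed by Elmo2 and Rgl2. For Jak2 it was Nr3c1 (0.0771), which encodes the glucocorticoid receptor, followed by Abcb1b and Abhd4, and for Tyk2 Top2a (0.0423), which encodes a DNA topoisomerase, followed by Ankzf1 and Rpe. The same measure placed Tyk2 at rank 8 and Stat3 at rank 16 for Stat6, Stat6 at rank 10 for Stat3 and Stat6 at rank 23 for Tyk2, while Jak2 had no other member nearer than Stat5b at rank 529. These ranks are a description over 8 libraries of 2 groups.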
